A study of Mus musculus with 8 samples.

Results

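The integrated stress response and the unfolded protein response were followed through 40 genes, chosen by name: stress sensors, the transcription factors they act through, the amino-acid genes driven by the factor ATF4, and the chaperones and degradation genes of the endoplasmic reticulum (ER). All 40 were measured among 19937 genes, each by the probe set with the highest mean signal among those carrying 1 gene symbol, and 38 of them lay above the median gene in mean signal. The samples were 8 preparations of mouse B-lymphoid cells with the strain label SW129/C57BL/6J, 4 labelled c-jun knock out and 4 wild type, each hybridised to 1 Affymetrix MoGene 1.0 ST array. The series is titled for a role of c-JUN in lymphoid leukemia induced by BCR-ABL, but no sample label states whether BCR-ABL was present in these cells. How c-jun was deleted, whether cells were clones or pools, and how many animals were used is not stated in the labels. In both genotypes, replicates 1 and 2 had titles beginning with RO, and replicates 3 and 4 had titles beginning with D (knockout) or F (wild type). These title series are not called batches by the labels, and within the D/F series the letter and the genotype cannot be told apart.

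Cells that run short of amino acids or accumulate misfolded protein phosphorylate the translation initiation factor eIF2-alpha, which slows general protein synthesis while favouring translation of ATF4. ATF4 then drives genes for amino-acid synthesis and import, together with a set of damage and feedback genes led by Ddit3, which encodes CHOP. A separate branch, run by ATF6 and by IRE1 through XBP1, raises ER chaperones and the machinery that removes misfolded protein, a capacity that antibody-secreting descendants of B cells rely on heavily. c-JUN belongs to the same family of basic leucine zipper factors as ATF4 and CHOP.

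The targeted gene separated the genotypes: the Jun signal was 6.99, 6.46, 7.02 and 6.97 (knockout 1 to 4) and 8.82, 8.84, 10.55 and 8.77 (wild type 1 to 4), all on the log2 scale used throughout. Markers of the labelled cell type were high, with 7 of 7 measured B-lymphoid markers above the array median on all 8 arrays and a log2 summed signal of 15.50 to 15.68. Among markers of other cells, 0 of 9 myeloid and 0 of 8 T and NK cell markers lay above the median on every array. By the same count 3 of 8 stromal, 4 of 8 plasma cell and 0 of 3 erythroid markers did. Lyz2, a macrophage lysozyme, reached 10.63 and 10.64 in knockout replicates 1 and 2. Klrb1c, an NK cell receptor, reached 8.93 in knockout replicate 4 and 10.54 in wild-type replicate 3. The 8 arrays had been scaled to 1 trimmed mean, yet their medians over all probe sets ran from 6.93 in knockout replicate 2 to 7.41 and 7.42 in wild-type replicates 1 and 3. Counts of direction among the 40 genes are given again after each array was centred on its median or quantile normalised, and those of the further lists after centring.

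None of the 40 genes separated knockout from wild type. By limma with the title series as a term, 0 of 40 passed an adjusted p under 0.05 (0.00502% of all genes were called), 0 of 40 had an unadjusted p under 0.05 (2.25% of all genes), and in 0 of 40 were the 4 knockout signals all above or all below the 4 wild-type signals (1.29% of all genes). The differences ran from -0.30 for Vldlr, a lipoprotein receptor activated by ATF4, to 0.38 for Pdia3, a disulfide isomerase. In all, 23 of the 40 were higher in the knockout mean (28.0% of all genes), with a median of 0.0097 against -0.11 over all genes. Among the genes above the median mean signal, 4390 of 9968 were higher in the knockout mean, with a median of -0.03. With arrays centred on their medians 34 of 40 were higher, against 65.0% of all genes and 7804 of 9968 above the median signal. With quantile normalisation 18 of 40 were higher, against 48.8% of all genes. The 95% intervals reached from 0.25 either side of the estimate for Canx to 1.14 for Chac1, and their bounds lay between -1.16 and 1.30 across the genes.

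**Figure D1:**
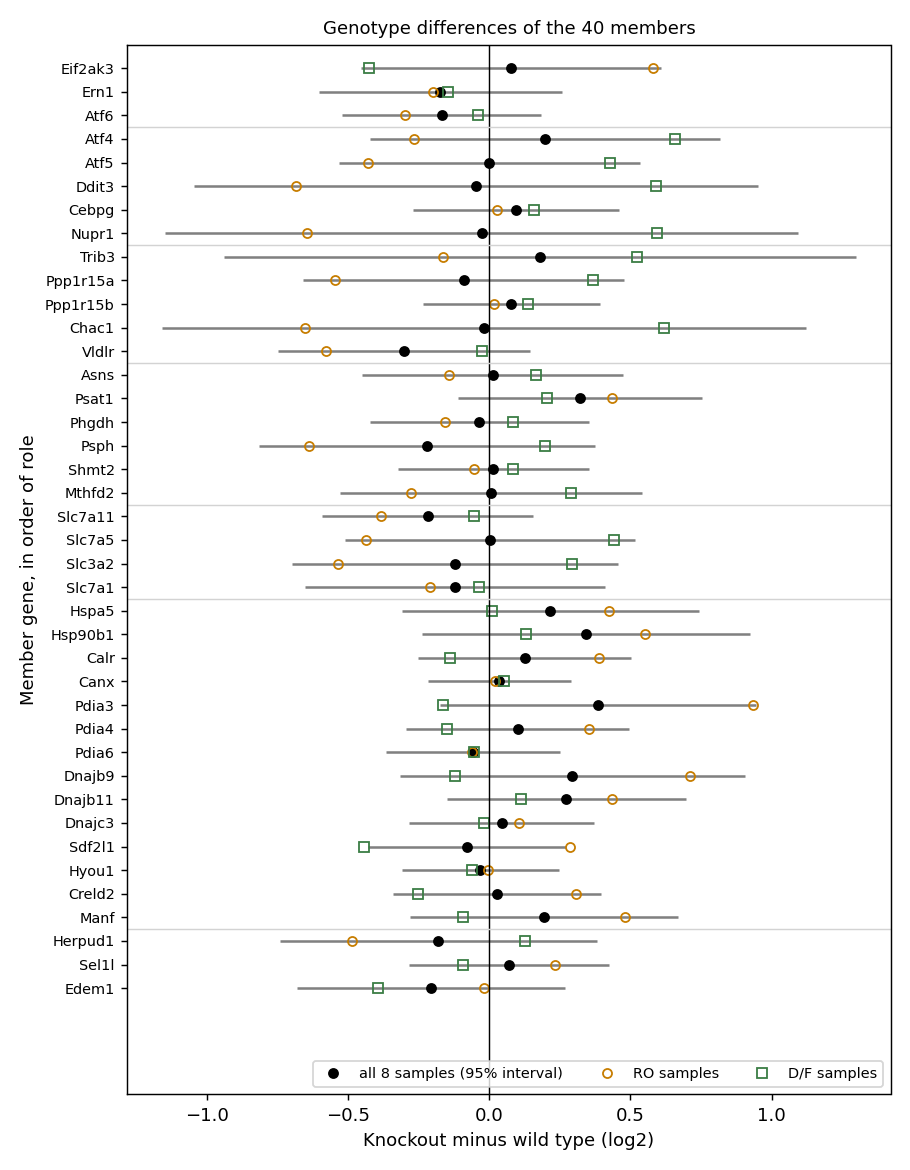
Knockout minus wild-type differences (log2, horizontal axis) of the 40 genes in order of role. Black points are limma estimates over all 8 samples and bars their 95% intervals, all of which include 0. Open circles give the difference of means among RO samples and open squares that among D/F samples. The circle lies left of the square for 19 of 20 genes on the ATF4 side (factors, feedback and amino-acid genes). It lies right of it for 12 of 14 chaperones. Over all genes the circle would lie left for 14267 of 19937, and for 5125 of 9968 above the median signal. Centring the arrays turned the sign of this contrast in 10 of the 40 genes.

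What varied was the individual sample. Some of the stress factors and feedback genes were among the most variable genes of the array. The distance from the lowest to the highest of the 8 signals was 2.94 for Nupr1, 2.80 for Trib3, 2.52 for Chac1 and 2.12 for Ddit3. These were above 99.0%, 98.7%, 98.2% and 97.2% of all genes. The other members of these groups ran from above 93.5% of all genes for Atf4 to above 10.6% for Cebpg and 4.7% for Ppp1r15b. At the other end, Hyou1, an ER chaperone, spanned 0.25 and Canx, the lectin chaperone calnexin, 0.38. The median span was 1.05 for the 40 genes and 0.75 for all genes.

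**Figure D2:**
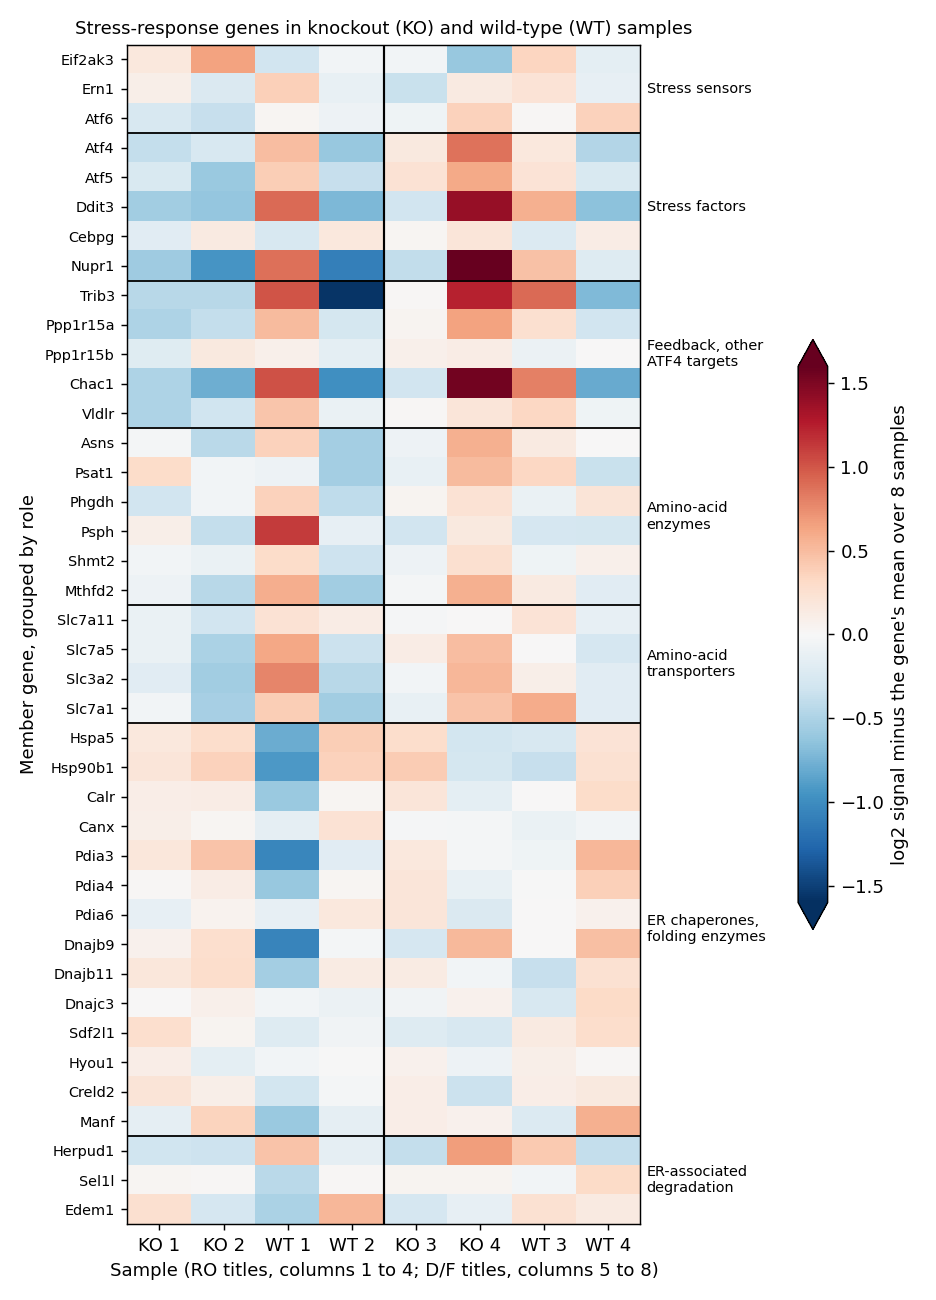
Deviation of each gene's log2 signal from its own mean over 8 samples (colour scale, clipped at 1.6) for the 40 genes (rows, grouped by role) in 8 samples (columns, RO titles left and D/F titles right of the line). Ddit3, Nupr1, Trib3 and Chac1 are red in WT 1, KO 4 and WT 3, and Hspa5 and Hsp90b1 are blue in the same columns.

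Among the sensors, Eif2ak3 encodes PERK, the ER kinase that phosphorylates eIF2-alpha. Its signals were 9.46, 9.93, 9.24 and 8.68 (knockout 1 to 4) and 8.98, 9.25, 9.63 and 9.13 (wild type 1 to 4). Both RO knockout samples lay above both RO wild-type samples while the D/F samples overlapped, and the genotype difference over all 8 was 0.08 (SE 0.24, limma adjusted p = 0.93). Ern1, which encodes IRE1, gave 7.76, 7.44, 7.31 and 7.82 (knockout 1 to 4) and 8.05, 7.55, 7.89 and 7.53 (wild type 1 to 4), a difference of -0.17 (SE 0.20, limma adjusted p = 0.878). Atf6, the membrane-bound factor released by cleavage, gave 9.40, 9.29, 9.59 and 10.04 (knockout 1 to 4) and 9.70, 9.58, 9.68 and 10.03 (wild type 1 to 4), a difference of -0.17 (SE 0.16, limma adjusted p = 0.878). In both Ern1 and Atf6 the ranges of the genotypes overlapped.

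Atf4 itself gave 10.25, 10.38, 10.78 and 11.50 (knockout 1 to 4) and 11.13, 10.03, 10.80 and 10.16 (wild type 1 to 4). It was highest in knockout replicate 4 and then in wild-type replicate 1, and lowest in wild-type replicate 2, so the extremes did not follow genotype, and the difference was 0.20 (SE 0.28, limma adjusted p = 0.878). Ddit3 varied more widely and in the same samples: 8.07, 8.01, 8.33 and 10.04 (knockout 1 to 4) and 9.54, 7.91, 9.20 and 7.98 (wild type 1 to 4). Knockout replicate 4, wild-type replicate 1 and wild-type replicate 3 stood above 9 while the other 5 samples lay between 7.91 and 8.33. The genotype difference was -0.05 (SE 0.46, limma adjusted p = 0.98). These 3 samples were the highest in 13 of the 40 genes, against 3197 of 19937 genes and 921 of 9968 above the median signal. With arrays centred the counts were 6 of 40, 406 of 19937 and 129 of 9968.

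Nupr1, a small stress-induced chromatin protein, showed the same order at its top, with 7.59, 7.22, 7.76 and 10.01 (knockout 1 to 4) and 9.04, 7.06, 8.63 and 7.96 (wild type 1 to 4). Here knockout replicate 4 was 4.73-fold above knockout replicate 3, and wild-type replicate 1 was 3.93-fold above wild-type replicate 2, whereas the genotype means differed by -0.03 (SE 0.51). Atf5, a relative of ATF4, followed with a narrower span, from 7.81 in knockout replicate 2 to 9.02 in knockout replicate 4. Cebpg, a dimer partner of ATF4, shared the high signal of knockout replicate 4 but not the rest: 8.96, 9.28, 9.17 and 9.33 (knockout 1 to 4) and 8.88, 9.30, 8.92 and 9.26 (wild type 1 to 4). Wild-type replicates 1 and 3 were its lowest samples, and the genotype difference was 0.09 (SE 0.17, limma adjusted p = 0.887).

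**Figure D3:**
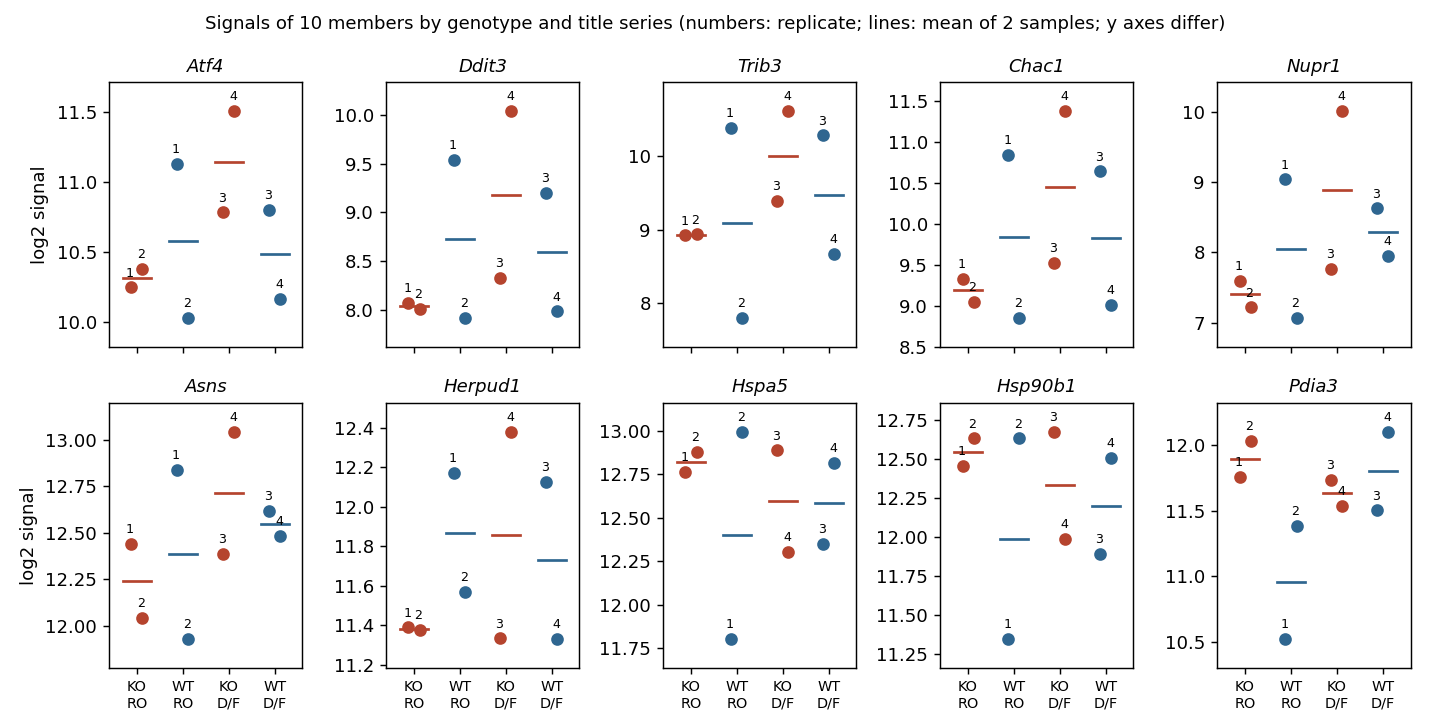
log2 signals of 10 genes by genotype and title series (red, knockout; blue, wild type; numbers, replicate; lines, mean of 2 samples; y axes differ between panels). In Ddit3, Trib3, Chac1 and Nupr1 knockout replicate 4 and wild-type replicates 1 and 3 are the highest samples, and in Hspa5 and Hsp90b1 they are the lowest.

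Among the feedback genes and other ATF4 targets, Trib3, a pseudokinase that dampens ATF4 and AKT signalling, gave 8.92, 8.93, 9.39 and 10.60 (knockout 1 to 4) and 10.38, 7.80, 10.27 and 8.67 (wild type 1 to 4). Wild-type replicate 1 was 5.98-fold above wild-type replicate 2 and wild-type replicate 3 was 3.04-fold above wild-type replicate 4, so the spread among wild-type samples exceeded the genotype difference of 0.18 (SE 0.51, limma adjusted p = 0.922). Chac1, an enzyme that breaks down glutathione, gave 9.33, 9.05, 9.52 and 11.37 (knockout 1 to 4) and 10.84, 8.85, 10.64 and 9.02 (wild type 1 to 4). The genotype means of Chac1 were almost equal, 9.82 ± 1.05 in knockout and 9.84 ± 1.05 in wild type (SD, n = 4 each), with a difference of -0.02 (SE 0.52, limma adjusted p = 0.993).

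Ppp1r15a, which encodes GADD34 and directs a phosphatase back to eIF2-alpha, ran from 7.74 in knockout replicate 1 to 8.87 in knockout replicate 4, with a genotype difference of -0.09 (SE 0.26). Ppp1r15b, the constitutive counterpart, gave 9.96, 10.32, 10.23 and 10.28 (knockout 1 to 4) and 10.24, 9.99, 10.06 and 10.17 (wild type 1 to 4), a difference of 0.08 (SE 0.14, limma adjusted p = 0.889). It was among the narrowest of the 40 genes, and a second probe set for it gave the opposite sign, -0.15. Vldlr gave 6.16, 6.33, 6.67 and 6.85 (knockout 1 to 4) and 7.10, 6.55, 6.99 and 6.59 (wild type 1 to 4), signals below the array median on all 8 arrays, with a difference of -0.30 (SE 0.20, limma adjusted p = 0.878).

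Of the amino-acid enzymes, Asns, asparagine synthetase, gave 12.44, 12.04, 12.39 and 13.04 (knockout 1 to 4) and 12.84, 11.93, 12.62 and 12.48 (wild type 1 to 4). It too was highest in knockout replicate 4 and wild-type replicate 1 and lowest in wild-type replicate 2, and the difference was 0.01 (SE 0.21). Serine is made by Phgdh, Psat1 and Psph acting in turn. Psat1 had the largest genotype difference of the 6 enzymes, 0.32 (SE 0.20, limma adjusted p = 0.878), from 12.30, 11.96, 11.89 and 12.51 (knockout 1 to 4) and 11.92, 11.46, 12.34 and 11.65 (wild type 1 to 4). The ranges of its genotypes overlapped from 11.89 to 12.34. Phgdh gave 11.38, 11.64, 11.72 and 11.92 (knockout 1 to 4) and 12.06, 11.27, 11.58 and 11.89 (wild type 1 to 4), a difference of -0.04 (SE 0.18).

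Psph gave 10.32, 9.84, 9.91 and 10.37 (knockout 1 to 4) and 11.34, 10.09, 9.95 and 9.94 (wild type 1 to 4). Wild-type replicate 1 stood alone in this gene, 2.37-fold above wild-type replicate 2, and the genotype difference was -0.22 (SE 0.27, limma adjusted p = 0.878). Shmt2 and Mthfd2, which supply folate-bound carbon units in mitochondria, differed by 0.01 (SE 0.15) and 0.01 (SE 0.24), and in both the 2 highest samples were knockout replicate 4 and wild-type replicate 1.

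Of the 4 transporters, Slc7a11 was dim and the other 3 were bright. Slc7a5 and Slc3a2 encode the subunits of the large neutral amino-acid transporter. Slc3a2 gave 12.85, 12.46, 12.98 and 13.56 (knockout 1 to 4) and 13.80, 12.58, 13.11 and 12.84 (wild type 1 to 4), a difference of -0.12 (SE 0.26, limma adjusted p = 0.906). Slc7a5 ran from 12.86 in knockout replicate 2 to 13.99 in wild-type replicate 1, with means of 13.37 ± 0.42 and 13.37 ± 0.44 (SD, n = 4 each). Slc7a1, the cationic amino-acid importer, gave 11.31, 10.83, 11.24 and 11.82 (knockout 1 to 4) and 11.76, 10.80, 11.95 and 11.17 (wild type 1 to 4), a difference of -0.12 (SE 0.24, limma adjusted p = 0.899). Its 3 highest samples were again wild-type replicates 1 and 3 and knockout replicate 4. That held for 4 of the 10 amino-acid enzymes and transporters, and for 1 of 10 with arrays centred. Slc7a11, the cystine importer, lay below the array median on all 8 arrays at 5.76, 5.57, 5.85 and 5.87 (knockout 1 to 4) and 6.10, 6.00, 6.09 and 5.74 (wild type 1 to 4), and differed by -0.22 (SE 0.17, limma adjusted p = 0.878).

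The ER chaperones ran the other way. Hspa5, which encodes BiP, the main chaperone of the ER lumen, gave 12.76, 12.88, 12.89 and 12.30 (knockout 1 to 4) and 11.80, 12.99, 12.35 and 12.82 (wild type 1 to 4). Wild-type replicate 1, knockout replicate 4 and wild-type replicate 3 were its 3 lowest samples, the reverse of Ddit3, and wild-type replicate 2 was 2.28-fold above wild-type replicate 1. The genotype difference was 0.22 (SE 0.24, limma adjusted p = 0.878). Hsp90b1, which encodes the ER member of the HSP90 family, had the same 3 lowest samples at 12.45, 12.63, 12.67 and 11.98 (knockout 1 to 4) and 11.35, 12.63, 11.89 and 12.50 (wild type 1 to 4), with a difference of 0.34 (SE 0.27, limma adjusted p = 0.878).

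Pdia3 gave 11.75, 12.03, 11.73 and 11.54 (knockout 1 to 4) and 10.53, 11.39, 11.50 and 12.10 (wild type 1 to 4). Its wild-type spread, from 10.53 to 12.10, enclosed all 4 knockout samples, and its difference was 0.38 (SE 0.26, limma adjusted p = 0.878). Dnajb11, a cofactor of BiP, gave 10.38, 10.48, 10.34 and 10.15 (knockout 1 to 4) and 9.65, 10.34, 9.83 and 10.44 (wild type 1 to 4), a difference of 0.27 (SE 0.19, limma adjusted p = 0.878). Among the other 10, Calr, the lectin chaperone calreticulin, and Pdia4, another isomerase, were again lowest in wild-type replicate 1, at 11.88 and 10.99. Their genotype differences were 0.13 and 0.10, and a second probe set for Pdia4 gave -0.04. Dnajb9, a further BiP cofactor, spanned 1.57, from 7.32 in wild-type replicate 1 to 8.90 in knockout replicate 4, and so was high rather than low in that knockout sample. Pdia6, an isomerase, Dnajc3, a cochaperone that restrains PERK, and Creld2 and Manf, secretable proteins induced by ER stress, differed by -0.06, 0.04, 0.03 and 0.19. Canx, Hyou1 and Sdf2l1 differed by 0.04, -0.03 and -0.08. Over the 14 genes, 11 were higher in the knockout mean (28.0% of all genes, and 4390 of 9968 above the median signal). The count was 14 with arrays centred (65.0% of all genes, and 7804 of 9968) and 9 with quantile normalisation (48.8% of all genes). Of the 14, 9 had their lowest signal in wild-type replicate 1.

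Degradation of ER proteins split between these patterns. Herpud1, a membrane protein that organises the degradation complex, followed the ATF4 targets: 11.39, 11.38, 11.33 and 12.38 (knockout 1 to 4) and 12.17, 11.57, 12.13 and 11.33 (wild type 1 to 4). Its 3 highest samples were knockout replicate 4 and wild-type replicates 1 and 3, the other 5 lay between 11.33 and 11.57, and the genotype difference was -0.18 (SE 0.26, limma adjusted p = 0.878). Sel1l, the scaffold of the same complex, gave 9.75, 9.74, 9.76 and 9.75 (knockout 1 to 4) and 9.28, 9.74, 9.67 and 10.02 (wild type 1 to 4), a difference of 0.07 (SE 0.16, limma adjusted p = 0.907). Edem1, a lectin that hands over misfolded glycoproteins, gave 10.97, 10.45, 10.46 and 10.59 (knockout 1 to 4) and 10.22, 11.25, 10.96 and 10.87 (wild type 1 to 4), a difference of -0.21 (SE 0.22, limma adjusted p = 0.878). Both were lowest in wild-type replicate 1, as most chaperones were.

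Promoters of 35 of the 40 genes were found in a RefSeq table of the build GRCm38.p6. They were searched on both strands, from 250 bases before to 50 after the start, for 4 motifs. The ER stress elements were ERSE (CCAAT and CCACG, 9 bases apart) and ERSE-II (ATTGG and CCACG, 1 base apart). CARE (TGATGNAA) is the core of the ATF4 composite element. The last was a loose form of the AP-1 element to which c-JUN binds, TGANTCA with any middle base. ERSE was found in 7 of 12 chaperones (Calr, Canx, Creld2, Dnajc3, Hsp90b1, Hspa5 and Pdia6) and in 0.137% of all 27025 genes in the table. It was found in 0 of 18 genes on the ATF4 side (factors, feedback and amino-acid genes). CARE was found in 6 of those 18 (Asns, Chac1, Nupr1, Slc7a11, Trib3 and Vldlr), in 0 of 12 chaperones and in 4.51% of all genes. The loose AP-1 form was found in 5 of 35 and in 8.97% of all genes. The matches were TGACTCA in Ddit3 and Slc7a1, TGAGTCA in Hspa5, and TGATTCA in Eif2ak3 and Sel1l. Shares for the narrower element were not counted. Herpud1 alone held both ERSE-II and CARE. These elements were described on genes of this kind, so the matches place the genes and are no independent evidence, and a match is not shown to be a bound site.

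Of the promoters with an ERSE, ERSE-II or CARE match, 6 are printed, from genes whose signals opposed each other and from Herpud1. Ddit3, whose signals were the reverse of those of Hspa5, held none of these matches and is left out. Each printed promoter shows the 250 bases before the start, read 5′ to 3′ on the strand of the gene. ERSE, ERSE-II and CARE matches are in capitals.
Hspa5: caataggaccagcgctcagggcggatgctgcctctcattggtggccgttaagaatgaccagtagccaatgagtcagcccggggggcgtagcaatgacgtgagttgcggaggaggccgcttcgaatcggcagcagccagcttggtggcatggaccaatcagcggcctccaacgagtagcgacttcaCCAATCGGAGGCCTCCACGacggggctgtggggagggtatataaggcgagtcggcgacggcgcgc
Hsp90b1: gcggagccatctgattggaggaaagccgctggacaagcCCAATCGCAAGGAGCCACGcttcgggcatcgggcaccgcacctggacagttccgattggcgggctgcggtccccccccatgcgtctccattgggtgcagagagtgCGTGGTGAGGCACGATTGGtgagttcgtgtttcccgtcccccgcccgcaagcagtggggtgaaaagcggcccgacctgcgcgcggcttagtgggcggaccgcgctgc
Herpud1: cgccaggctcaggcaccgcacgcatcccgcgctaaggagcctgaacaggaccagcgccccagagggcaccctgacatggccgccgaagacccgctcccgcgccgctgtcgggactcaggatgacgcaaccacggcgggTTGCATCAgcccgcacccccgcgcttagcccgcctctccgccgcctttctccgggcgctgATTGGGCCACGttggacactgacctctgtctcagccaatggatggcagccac
Chac1: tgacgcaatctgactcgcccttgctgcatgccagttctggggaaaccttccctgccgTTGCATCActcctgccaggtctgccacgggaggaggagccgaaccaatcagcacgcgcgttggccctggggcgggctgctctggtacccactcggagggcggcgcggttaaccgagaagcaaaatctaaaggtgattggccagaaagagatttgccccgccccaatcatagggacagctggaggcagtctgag
Nupr1: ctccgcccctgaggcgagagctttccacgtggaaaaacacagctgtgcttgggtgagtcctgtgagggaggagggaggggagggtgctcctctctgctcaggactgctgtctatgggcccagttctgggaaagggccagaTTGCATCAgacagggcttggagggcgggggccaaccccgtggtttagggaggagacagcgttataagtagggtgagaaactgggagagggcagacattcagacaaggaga
Asns: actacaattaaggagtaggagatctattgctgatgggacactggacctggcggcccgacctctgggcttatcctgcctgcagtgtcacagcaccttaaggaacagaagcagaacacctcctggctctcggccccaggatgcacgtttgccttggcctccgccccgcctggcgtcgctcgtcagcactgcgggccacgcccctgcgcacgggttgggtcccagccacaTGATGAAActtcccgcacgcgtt

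In GRCm38.p6 these lie at chr2:34771840-34772089, plus strand for Hspa5, chr10:86705445-86705694, minus strand for Hsp90b1 and chr8:94386179-94386428, plus strand for Herpud1. Those of the ATF4 targets lie at chr2:119350992-119351241, plus strand for Chac1, chr7:126625471-126625720, minus strand for Nupr1 and chr6:7693210-7693459, minus strand for Asns. The ERSE match of Hspa5 began 65 bases before the start, and Hsp90b1 held a pair, beginning 212 and 107 bases before it. In Herpud1 the ERSE-II match began 52 and the CARE match 112 bases before the start. The CARE matches of Chac1 and Nupr1 were on the opposite strand, 193 and 110 bases before the start, and that of Asns was 23 bases before it.

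Each genotype held 2 samples of each title series, which allowed samples of like label to be set against each other. The 20 genes on the ATF4 side were 5 factors, 5 feedback genes and other targets, 6 enzymes and 4 transporters. Not all are ATF4 targets, since Atf4 itself and the constitutive Ppp1r15b are among them. All were higher in knockout replicate 4 than in knockout replicate 3 (20 of 20, against 47.9% of all genes), by a median of 0.58. In wild-type replicate 1 against wild-type replicate 2, 19 of 20 were higher, against 68.5% of all genes, by a median of 0.93, with Cebpg the exception. In wild-type replicate 3 against wild-type replicate 4, 16 of 20 were higher, against 73.1%, by a median of 0.38. Between knockout replicates 1 and 2, 13 of 20 were higher in replicate 1, against 59.3% of all genes, by a median of 0.24. With arrays centred on their medians, in the same order of pairs, 20, 17, 8 and 11 of 20 were higher, against 46.4%, 39.3%, 36.4% and 44.6% of all genes, so that the direction in wild-type replicates 3 and 4 turned. With quantile normalisation the counts were 20, 18, 14 and 12 of 20, against 47.8%, 51.9%, 51.1% and 49.2%.

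The 14 chaperones showed the reverse in the same pairs. They were lower in knockout replicate 4 than in knockout replicate 3 in 12 of 14 (52.1% of all genes). In wild type they were lower in replicate 1 than in replicate 2 in 13 of 14 (31.5%). They were lower in wild-type replicate 3 than in wild-type replicate 4 in 13 of 14 (26.9%). Among genes above the median signal the shares were 49.3%, 47.5% and 48.5%. With arrays centred the counts were 12, 14 and 14 of 14, against 53.6%, 60.7% and 63.6% of all genes and 51.0%, 71.2% and 83.4% of genes above the median signal. With quantile normalisation they were 11, 12 and 11, against 52.0%, 48.1% and 48.8% of all genes. Which sample of a pair was the higher is a description of these samples, since no label sets the members of a pair apart. In bulk samples, fewer cells of a type and less RNA per cell cannot be told apart.

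Values other than stress genes moved with these samples. Array medians were highest in wild-type replicates 1 and 3, though that of knockout replicate 4 matched knockout replicate 3, with gene medians of 7.47 in both. The summed T and NK cell markers were 11.24 in wild-type replicate 3, 10.24 in knockout replicate 4 and 9.83 in wild-type replicate 1, and so highest in the 3 samples in which Ddit3 was highest, against 9.41 to 9.71 in the other 5. Klrb1c was the brightest of these markers in wild-type replicate 3, at 10.54, and in knockout replicate 4, at 8.93. Single markers gave another order in the knockout pair, where 5 of 8 were higher in replicate 3 than in replicate 4 (52.1% of all genes). In wild type 6 of 8 were higher in replicate 1 than 2 (68.5% of all genes). In replicate 3 against 4 it was 8 of 8 (73.1%). These marker counts are on the values as deposited. Summed plasma cell markers, among them Xbp1, were highest in wild-type replicate 1 at 13.88 and lowest in knockout replicate 4 at 13.39. Summed stromal markers were highest in wild-type replicates 1 and 3, at 10.55 and 10.47, and 10.22 in both knockout replicates 3 and 4. Summed myeloid markers ran from 9.89 in wild-type replicate 4 to 11.13 in knockout replicate 1, and the 3 measured of 6 erythroid markers from 8.26 in knockout replicate 2 to 8.95 in wild-type replicate 3. Their part in the differences between samples was not tested.

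The arms were summarised for each sample as the mean deviation from each gene's own mean, over the 10 amino-acid enzymes and transporters and over the 14 chaperones. The amino-acid value was -0.05, -0.33, -0.07 and 0.38 (knockout 1 to 4) and 0.47, -0.37, 0.11 and -0.13 (wild type 1 to 4). The chaperone value was 0.09, 0.17, 0.09 and -0.09 (knockout 1 to 4) and -0.50, 0.06, -0.09 and 0.27 (wild type 1 to 4). The arms lay on opposite sides of 0 in 8 of 8 samples, in 8 of 8 with quantile normalisation and in 5 of 8 with arrays centred on their medians.

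**Figure D4:**
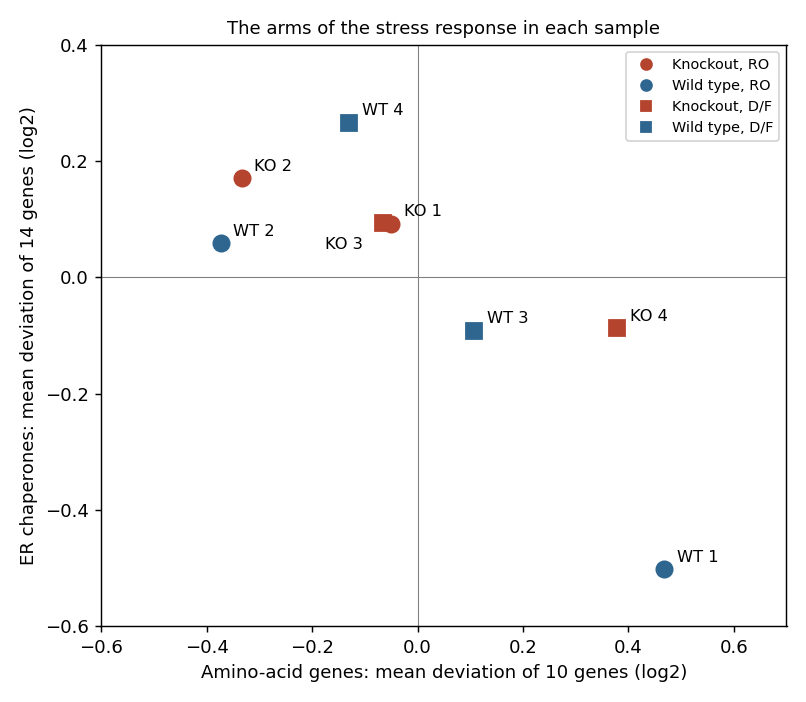
Mean deviation (log2) of the 10 amino-acid genes (horizontal) and the 14 ER chaperones (vertical) in each of 8 samples (red, knockout; blue, wild type; circles, RO; squares, D/F). Samples of both genotypes lie at the upper left, and WT 1 at the lower right has 0.47 and -0.50.

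The amino-acid value less the chaperone value averaged -0.085 ± 0.40 in knockout and 0.085 ± 0.66 in wild type (SD, n = 4 each), a genotype difference of -0.17 that was smaller than either spread. It was -0.59 among RO samples and 0.25 among D/F samples, and without wild-type replicate 1 the overall difference was 0.13, of the opposite sign. By title series, D/F samples exceeded RO samples by 0.055. The ranges of the genotypes overlapped, as did those of the title series.

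The title series themselves did not separate the genes. For D/F against RO, 0 of 40 passed the limma adjustment (0.0201% of all genes), 0 of 40 had an unadjusted p under 0.05 (3.12%), and in 0 of 40 were the series without overlap (1.96%). The difference was above 0 in 31 of 40 genes, against 63.8% of all genes, and in 24 of 40 with arrays centred, against 44.9%, and in 34 of 40 with quantile normalisation, against 52.2%. The largest were 0.86 (SE 0.51) for Nupr1 and 0.72 (SE 0.51) for Trib3.

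Genotype differences were next compared between the title series, as an interaction in limma. Again 0 of 40 passed the adjustment (0.0301% of all genes), and 4 of 40 had an unadjusted p under 0.05, against 5.38% of all genes. These were Sdf2l1, a BiP cofactor, with a knockout minus wild-type difference of 0.29 among RO and -0.44 among D/F samples, Pdia3 with 0.93 and -0.16, Eif2ak3 with 0.58 and -0.42, and Slc7a5 with -0.44 and 0.44. Their adjusted limma p was 0.716 for each. In Sdf2l1, 1 of the 40, the genotypes lay apart in opposite directions in the series, as they did in 5.80% of all genes. Of the 20 genes on the ATF4 side, 17 were lower in knockout among RO samples (median over the 20, -0.33) and 17 were higher among D/F samples (median 0.25). The RO count did not hold with arrays centred, where 10 of 20 were lower, and was 18 with quantile normalisation, while the D/F count was 17 under both. Of the 14 chaperones, 12 were higher in knockout among RO samples (14 centred, 11 quantile normalised) and 4 among D/F samples (4 and 3). Over all genes as deposited, 5292 of 19937 were higher in knockout among RO samples (median -0.25) and 10440 among D/F samples (median 0.0097). Among genes above the median signal, 4687 and 4560 of 9968 were higher. Such shares were not counted for each series with arrays centred or quantile normalised. Each of these counts rests on 2 samples a genotype.

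The rest of the pathway was read from 4 further lists, 78 of 84 genes measured, and 0 of 78 passed the adjustment for genotype, title series or interaction. Among 18 other stress kinases, factors and proteases, 6 were higher in the knockout mean, and 14 with arrays centred (28.0% and 65.0% of all genes). The smallest genotype p belonged to Eif2ak2 (difference 0.21, SE 0.18), the kinase of double-stranded RNA, to the eIF2B subunit Eif2b4 (-0.17, SE 0.15), the ER-anchored factor Creb3 (-0.17, SE 0.15) and the secreted glycoprotein Stc2 (-0.33, SE 0.34). By title series they were the eIF2B subunit Eif2b1 (D/F minus RO 0.30, SE 0.15), Atf3 (0.87, SE 0.45), Sesn2 (0.89, SE 0.47) and Ddit4 (0.58, SE 0.37). Atf3, a factor induced by ATF4, gave 7.62, 7.87, 8.46 and 10.04 (knockout 1 to 4) and 9.50, 7.94, 9.66 and 8.25 (wild type 1 to 4), and Sesn2, a restrainer of mTORC1, gave 8.83, 8.36, 8.98 and 10.78 (knockout 1 to 4) and 10.22, 7.99, 9.88 and 9.34 (wild type 1 to 4). Both were highest in the same 3 samples as Ddit3, as were 4 of the 18 genes of this list and 3197 of 19937 genes. With arrays centred the counts were 2 of 18 and 406 of 19937.

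Xbp1, the factor that IRE1 activates by splicing, did not share either pattern: 10.53, 10.77, 11.66 and 10.52 (knockout 1 to 4) and 12.59, 10.45, 10.15 and 10.97 (wild type 1 to 4). Its highest signal was in wild-type replicate 1, where 9 of the 14 chaperones had their lowest, a share not counted over all genes. The array's single value a gene does not separate the spliced from the unspliced form. Xbp1 was chosen after its values were seen.

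Among 14 other ATF4 amino-acid enzymes and transporters, 4 were higher in the knockout mean, and 7 with arrays centred (28.0% and 65.0% of all genes). The smallest genotype p belonged to Slc36a1 (-0.31, SE 0.18), Slc7a3 (-0.47, SE 0.42), Mthfd1l (-0.18, SE 0.16) and Cbs (-0.26, SE 0.24). By title series they were Slc1a5 (0.60, SE 0.18), Slc7a3 (0.86, SE 0.42), Got1 (0.20, SE 0.14) and Slc6a9 (0.74, SE 0.52). Slc1a5, the glutamine importer, gave 11.53, 10.87, 11.60 and 12.06 (knockout 1 to 4) and 11.46, 11.04, 11.71 and 11.92 (wild type 1 to 4). Its RO and D/F samples did not overlap, as in 1.96% of all genes, and its limma adjusted p was 0.876. The 2-sided exact permutation p, 0.0286 over 70 assignments, is the smallest the design allows. Every gene without overlap gets it. Cth, which makes cysteine and was chosen after its values were seen, gave 9.91, 9.74, 10.50 and 12.86 (knockout 1 to 4) and 12.15, 9.30, 11.55 and 9.96 (wild type 1 to 4). Of these 14 genes, 12 were higher in knockout replicate 4 than 3, 11 in wild-type replicate 1 than 2 and 12 in wild-type replicate 3 than 4, against 47.9%, 68.5% and 73.1% of all genes. With arrays centred the counts were 12, 10 and 6 of 14, against 46.4%, 39.3% and 36.4%, so that the last pair turned.

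Aminoacyl-tRNA synthetases, which load tRNA with amino acids and are partly under ATF4 control, were higher in those same samples in 13, 11 and 10 of 14, against 47.9%, 68.5% and 73.1% of all genes. With arrays centred the counts were 13, 8 and 1 of 14, against 46.4%, 39.3% and 36.4%, and the direction in wild-type replicates 3 and 4 turned. In the knockout mean 9 of 14 were higher, and 13 with arrays centred (28.0% and 65.0% of all genes, 4390 and 7804 of 9968 above the median signal). Their genotype differences ran from -0.22 for Vars to 0.13 for Lars, with -0.17 for Mars1 and 0.08 for Farsb. By title series the smallest p belonged to Yars (0.37, SE 0.18), Nars (0.26, SE 0.15), Farsb (0.24, SE 0.15) and Eprs (0.26, SE 0.16).

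Of the 32 other ER folding, translocation and degradation genes, 18, 19 and 14 were lower in knockout replicate 4, wild-type replicate 1 and wild-type replicate 3 than in their partners (52.1%, 31.5% and 26.9% of all genes). With arrays centred 18, 26 and 28 of 32 were lower, against 53.6%, 60.7% and 63.6%. Among genes above the median signal the shares were 49.3%, 47.5% and 48.5% as deposited, and 51.0%, 71.2% and 83.4% with arrays centred. In the knockout mean 17 of 32 were higher, and 28 with arrays centred. The shares were 28.0% and 65.0% of all genes, and 4390 and 7804 of 9968 above the median signal. The smallest genotype p belonged to the prolyl isomerase Fkbp11 (-0.50, SE 0.26), to Ssr3 (0.23, SE 0.14), Uggt1 (-0.23, SE 0.15) and Derl2 (0.33, SE 0.24). By title series they were Ero1a, the oxidase that recharges disulfide isomerases (0.42, SE 0.17), Selenos (0.28, SE 0.16), Fkbp2 (-0.25, SE 0.16) and Derl2 (0.33, SE 0.24). Sec62, a translocation subunit chosen after its values were seen, gave 9.07, 9.19, 9.05 and 9.08 (knockout 1 to 4) and 8.71, 9.04, 8.95 and 9.04 (wild type 1 to 4). Its lowest knockout signal was above its highest wild-type signal by a small margin, with a difference of 0.16 (SE 0.15, limma adjusted p = 0.878). The genotypes did not overlap in 1.29% of all genes. Every such gene gets the same 2-sided exact permutation p, 0.0286 over 70 assignments, so that p adds no support.

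Cytosolic heat shock genes, a response to misfolding outside the ER, were read for comparison, and 0 of 10 passed the adjustment. Bag3, a cochaperone, had the smallest p of any listed gene for genotype: 6.68, 6.41, 6.95 and 6.97 (knockout 1 to 4) and 7.12, 7.06, 7.32 and 8.06 (wild type 1 to 4). The highest knockout signal was under the lowest wild-type signal, and the difference was -0.64 (SE 0.19, limma adjusted p = 0.878). The genotypes were without overlap in 1.29% of all genes. The 2-sided exact permutation p, 0.0286 over 70 assignments, is the same for every such gene and adds no support. The others named by genotype were Hspa8 (0.18, SE 0.13), Hspd1 (0.20, SE 0.16) and Hspe1 (0.14, SE 0.13). By title series they were Bag3 (0.51, SE 0.19), Hsph1 (-0.21, SE 0.15), Hspa1a (0.18, SE 0.19) and Hspa8 (-0.10, SE 0.13).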

How the data were processed

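The authors deposited log2 values, 1 column per array, for 34760 probe sets. The base was read from the values, and MAS5 is the tool named per the submitters' processing notes. Its version is not stated. On the linear scale every array had the same trimmed mean, which left the medians unequal. Per the platform annotation 21640 probe sets had 1 gene symbol, 1321 several and 11799 none. Where several single-symbol probe sets measured a gene, that of highest mean was used, which gave 19937 genes. Replicates were numbered in accession order.

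The values were fitted as deposited with limma 3.58.1 in R 4.3.3 (lmFit, eBayes with a trend), with genotype and title series as terms, and in a further fit with their interaction. P-values were adjusted by Benjamini-Hochberg over all genes at 0.05. The fits were tested on simulated data. Each SE is that of the moderated fit. Single genes whose groups did not overlap were given a 2-sided exact permutation test, whose p is the same for every such gene. The labels do not say that samples came from separate cultures or animals, so p-values reflect only the spread among these arrays, part of which may be technical. Precision is limited by the small number of arrays.

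The genes and lists were chosen with earlier results of these data known. All 40 genes were named, with full values for the 3 of smallest p in each role. Nupr1, Chac1, Asns, Hspa5, Atf3, Sesn2, Slc1a5, Cth, Xbp1, Bag3 and Sec62 were given in full after their values were seen. Of each further list, up to 4 genes of smallest p for genotype and for title series were named. The alternatives were quantile normalisation, centring, a signal filter, averaged probe sets, other eBayes priors, array weights, the title series left out, as a random block or alone, and each array left out. A search of protein ends for ER retrieval signals was not run, as no protein table was used here.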

Additional observations from a re-analysis of the deposited data

Results flagged for a closer look

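Among 80 groups of 4 samples (40 genes in each genotype), 3 had 1 sample far from the rest by Dixon's criterion, which chance alone meets in about 1 group in 20. Ddit3 was 10.04 in knockout replicate 4, against 8.33 in the next knockout sample. Herpud1 was 12.38 in the same sample, against 11.39 in the next. Psph was 11.34 in wild-type replicate 1, against 10.09 in the next wild-type sample.

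The genotype difference of Sdf2l1 was unlike in the title series. The interaction was -0.73 (limma adjusted p = 0.716), from 0.29 among RO samples and -0.44 among D/F samples, and it remained below 0 with each array left out in turn, at -0.84 to -0.62. The genotypes lay apart in opposite directions in the series in 5.80% of all genes.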

How the results depend on the processing

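For the 40 genes, 0 were called by genotype, title series or interaction under any setting tried, and the lowest adjusted p in any of them was 0.101. The sign of the genotype difference turned with 1 array left out in 27 of 40 genes, that of the title series in 16 and that of the interaction in 18. Centring turned the sign in 11, 7 and 10 genes, and quantile normalisation in 7, 5 and 5. Unadjusted counts moved with single libraries, over all genes too. For title series 14 of 40 genes had an unadjusted p under 0.05 without wild-type replicate 1 (1159 of 19937 over all genes) and 14 with array weights (5258). For the interaction 23 did without wild-type replicate 2 (2325) and 11 without knockout replicate 3 (716). Over all genes, the genotype count of 1 became 0 with centring (652 unadjusted) and 0 among genes above the median signal (231 unadjusted), 2 with array weights, 32 in RO samples alone, 79 in D/F samples alone and 4 without wild-type replicates 1 and 3, a setting chosen after seeing the data. It was 0 to 2 with 1 array left out. The title series count of 4 became 0 above the median signal (457 unadjusted), 12 with a robust prior, 20 with array weights and 41 without wild-type replicates 1 and 3, and 0 to 18 with 1 array left out. The interaction count of 6 became 0 above the median signal (554 unadjusted), 10 with a robust prior, 0 with array weights (879 unadjusted) and 1 without wild-type replicates 1 and 3, and 6 to 38 with 1 array left out. The cause was not tested. The difference between the arms by genotype ran from -0.35 to 0.13 with 1 array left out and was 0.33 without wild-type replicates 1 and 3. By title series it ran from -0.10 to 0.39 with 1 array left out. Where a pair kept 1 array, that sample was assumed to vary like the others. No paired analysis was possible because the labels carry no replicate numbers. Pseudocounts do not apply to log2 values.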
